A study of Homo sapiens with 27 samples.

Results

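The genes described here are 8 that write, erase or read DNA methylation: the DNA methyltransferases DNMT1, DNMT3A and DNMT3B, the dioxygenases TET1, TET2 and TET3, the thymine DNA glycosylase TDG and the methyl-CpG binding protein MBD2. They were chosen by name from the 57165 genes of the expression table and each was found once. All 8 passed the filter on low counts in every fit, which kept 15147 genes in SUM159 and 15721 in MDA-MB-231.

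DNA methylation is the addition of a methyl group to cytosine, in mammals mostly where a cytosine is followed by a guanine (CpG). DNMT1 copies the pattern onto the new strand after replication, guided by UHRF1, and DNMT3A and DNMT3B place methyl groups on sites that had none. TET enzymes oxidise the methyl group, TDG cuts out the oxidised bases for repair to an unmodified cytosine, and MBD2 binds methylated CpG and brings the NuRD repressor complex. Methylation of the promoters of epithelial genes is a known feature of mesenchymal breast cancer cells.

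RNA was sequenced from SUM159 and MDA-MB-231, human triple negative breast cancer lines of mesenchymal character, in 9 groups of 3 libraries. In each line there were untransduced wild type cells, cells transduced with the lentiviral vector pLV dCas9-KRAB without a targeting gRNA (No gRNA), and cells with the same vector and gRNAs against the promoter of ZEB1, a repressor of epithelial genes. dCas9-KRAB is a Cas9 that cannot cleave DNA, fused to a repressor domain, and transduced cells of all kinds were selected with puromycin. In SUM159 the targeted groups were gRNA 4 and All gRNA, the pool of 4 gRNAs. For 6 libraries of MDA-MB-231 the labels disagree: in set 1 the title and the transduction label say gRNA 4 while the column name says the pool, and in set 2 it is the other way round. Both sets target ZEB1 and neither is assigned to a gRNA condition here. Run 1 held 4 groups of SUM159, and run 2 held all MDA-MB-231 groups and a further wild type group of SUM159. For all but the wild type cells, line and run cannot be told apart. The labels name the 3 libraries of a group biological replicates and the methods individual clones, so each group rests on few clones. In bulk RNA, fewer cells that express a gene and less RNA per cell cannot be told apart.

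Libraries held between 15461200 and 21473757 estimated counts. Pairs of libraries of one group had correlations of log2 CPM between 0.981 and 0.988, and no pair agreed within sampling noise. ZEB1 was between 65.6 and 122 CPM (counts scaled to each library's TMM-adjusted total) in the wild type and No gRNA libraries, 2.57 to 5.74 in SUM159 gRNA 4 and both MDA-MB-231 sets, and 0.376 to 1.03 in SUM159 All gRNA. Of the 4 mesenchymal markers checked, VIM was at a mean of 1321 CPM or more in every group, and SPARC was at 4.62 CPM or below in all MDA-MB-231 libraries. Against No gRNA 1 of the 4 was called higher and 3 lower in set 1 (median -0.93), 2 higher and 2 lower in set 2 (median -0.90), and 1 higher and 2 lower in each SUM159 targeted group. Of all genes, 20.4% were called higher and 17.3% lower in set 1, and 27.3% and 25.1% in set 2. In SUM159 All gRNA it was 5.93% and 4.89%, and in gRNA 4 6.11% and 4.91%. Of the 4 luminal markers, ESR1 and PGR stayed under 1 CPM in every library, while KRT8 and CDH1 moved in MDA-MB-231. The list summed to 602.5 to 623.7 CPM in MDA-MB-231 wild type, 258.9 to 274.8 in No gRNA, 242.8 to 270.4 in set 1 and 993.5 to 1060 in set 2, and to 80.8 to 158.1 CPM in SUM159. KRT8 was higher in set 2 (1.96, TREAT adjusted p = 1.53e-08), and CDH1 in set 1 (5.36, TREAT adjusted p = 0.0232) and, by the moderated test, in set 2 (2.72, adjusted p = 0.0384). Markers of blood cells (PTPRC, at most 0.294 CPM) and liver (ALB, at most 0.514 CPM) were near 0. The endothelial marker PECAM1 was at means of 0.801 to 6.57 CPM over the groups. It was called higher in SUM159 All gRNA (1.42) and in MDA-MB-231 No gRNA against wild type (1.65), and lower in set 2 against No gRNA (-1.94) and against set 1 (-1.30). Mitochondrial mRNA took 2.62% to 3.70% of counts in SUM159 of run 1 and 1.53% to 1.55% in run 2, and 1.99% to 2.03% in MDA-MB-231 wild type, 1.46% to 1.86% in No gRNA, 1.01% to 1.14% in set 1 and 1.24% to 1.39% in set 2. The part of these markers and of the mitochondrial share in the results was not tested.

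Each gene is given below in CPM, and changes are log2 fold changes from voom-limma over the 12 libraries of a line. A gene is called where limma's moderated test against 0 gives an adjusted p-value under 0.05. TREAT, which the study's methods name without a threshold, was set here to ask that the change exceed 1 on the log2 scale. All p-values are two-sided and adjusted by Benjamini-Hochberg over all genes tested.

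Divided by the length of the canonical transcript, DNMT1 mRNA was the most abundant of the 8 in MDA-MB-231, at a mean of 67.2 CPM per kb in wild type cells, followed by TDG (23.5) and MBD2 (15.9). DNMT3B (4.41), TET3 (2.44), TET2 (1.61) and DNMT3A (1.06) were well below these, and TET1 was last at 0.0749. In SUM159 wild type cells of run 1 the order on the same scale was DNMT1 (53.7), MBD2 (27.9), TDG (16.8), TET3 (5.31), TET2 (4.55), DNMT3A (0.788), DNMT3B (0.528) and TET1 (0.0416). DNMT1 therefore held 97.6% of the summed DNMT level in these SUM159 cells and 92.5% in MDA-MB-231 wild type cells, and TET1 held 0.42% and 1.82% of the TET level. The order and the shares rest on canonical lengths, which may differ from those of the transcripts expressed. In these wild type groups no neighbours in the order overlapped over their 3 libraries. DNMT3A overlapped its neighbours DNMT3B and TET2 in MDA-MB-231 No gRNA, TET2 in set 2, and DNMT3B in both SUM159 targeted groups. DNMT1 and MBD2 overlapped in SUM159 No gRNA and All gRNA. By mean CPM per kb, some neighbours also changed places. MBD2 was above DNMT1 in SUM159 gRNA 4 (28.09 against 20.02) and All gRNA (26.33 against 22.65). In MDA-MB-231, TET3 was above DNMT3B in No gRNA (3.021 against 2.318) and set 1 (7.336 against 3.866). There DNMT3A was above TET2 in No gRNA (2.033 against 1.6) and set 1 (1.941 against 1.359).

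**Figure D1:**
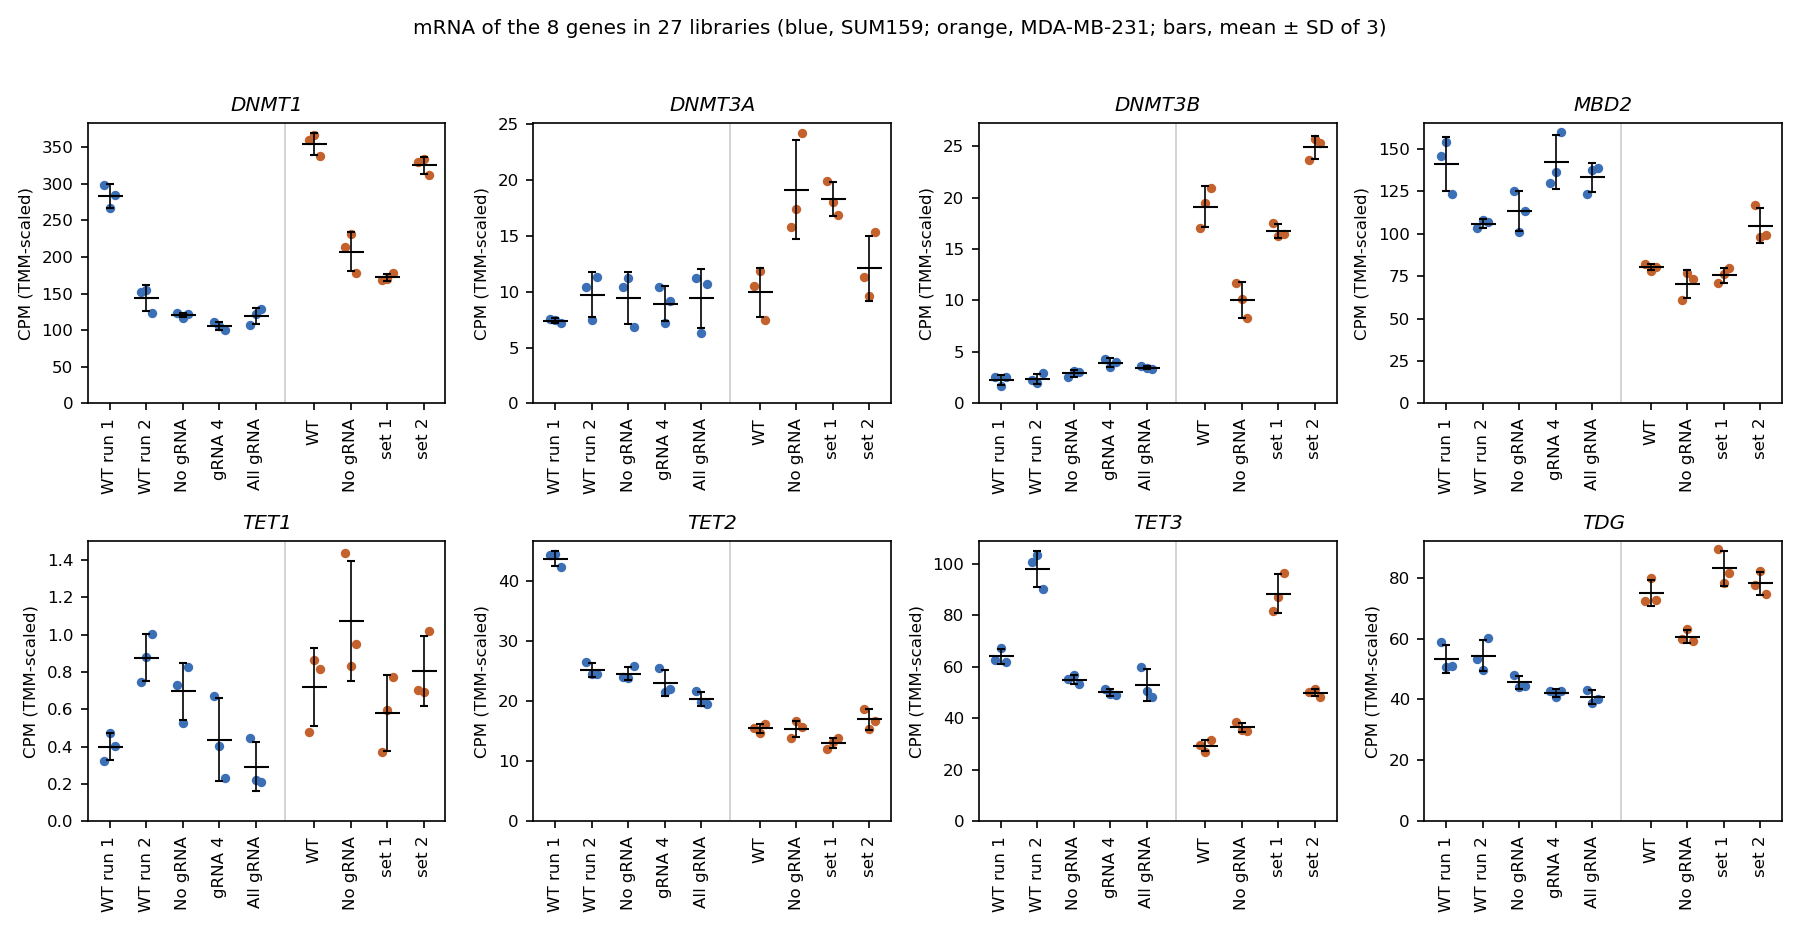
CPM of each gene on the y axis for the 27 libraries (points) of the 9 groups on the x axis, with the mean and SD of 3 libraries in black. DNMT1 is high in wild type SUM159 of run 1, in wild type MDA-MB-231 and in set 2, TET3 is highest among MDA-MB-231 groups in set 1, and DNMT3B is at most 4.35 CPM in SUM159 and at least 8.28 CPM in MDA-MB-231.

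The ZEB1 protein binds E-box motifs, of which CAGGTG and CAGGTA are the best known. They were searched on both strands in the RefSeq promoters of the 8 genes (300 bases, 250 before to 50 after a start site, GRCh38.p14), where 20.6% of 35116 promoters hold CAGGTG, 9.83% CAGGTA and 28.1% either. The windows below hold 30 bases read 5′ to 3′ on the strand of the gene, with the motif or its reverse complement CACCTG in capitals. They are shown because they are the only matches among the promoters listed for the 8 genes.
TET3 (chr2:73984689-73984718, plus strand): tgggagccactgCAGGTGcagagaagcggc
DNMT3A (chr2:25342646-25342675, minus strand): actccgcggcggCACCTGgctgggggttgc
DNMT3A (chr2:25252218-25252247, minus strand): ggccgcggctcaCACCTGagcgcgactgca
DNMT3A (chr2:25252191-25252220, minus strand): gcagaggggctgCACCTGgccttatgggta
A match of letters is a description and not a binding site, and binding was not measured here. The TET3 motif begins at position -209 from the start site. No CAGGTA was found in the promoters listed for the 8 genes. The only promoter listed for DNMT3B (chr20:32779602-32779901) lies inside the gene, which starts at 32762385. That of DNMT1 (chr19:10194904-10195203) also lies inside its gene, which starts at 10231286 on the minus strand. Neither gene start was searched. The DNMT3B promoter listed holds 3 CpG, fewer than the median of 14 for all promoters. Those of TET1 (10, 6 and 11) also hold fewer, and those of TET2 hold 13 and 35. The promoters listed for DNMT1 (30), MBD2 (32), TDG (22), TET3 (45 and 33) and DNMT3A (18 to 46) hold more.

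The question for the targeted groups is whether the genes that set DNA methylation changed with ZEB1 silenced. In SUM159 none of the 8 was called, and in MDA-MB-231 4 were called in set 1 and 6 in set 2, with sizes and in part directions that differed between the sets. TREAT called none of the 8 in these 4 comparisons. TET1 and TET2 were not called in any of them.

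Set against all genes, 3 of the 8 were higher and 1 lower in set 1, where 20.4% of all genes were called higher and 17.3% lower. In set 2, 5 were higher and 1 lower, where 27.3% and 25.1% of all genes were called. Between the sets, 4 were higher and 2 lower in set 2, with 25.2% and 26.3% of all genes called. In SUM159 All gRNA, limma's moderated test called none of the 8 (2 at an unadjusted p under 0.05, 1 by DESeq2), with 5.93% of all genes called higher and 4.89% lower. In gRNA 4 it called none (3 unadjusted, 1 by DESeq2), with 6.11% and 4.91%, and between All gRNA and gRNA 4 none (1 unadjusted), with 0.561% and 0.383%. TREAT called none of the 8 in these comparisons, with 0.396%, 0.39% and 0% of all genes called in SUM159 and 1.47%, 4.14% and 3.07% in MDA-MB-231. At an unadjusted p under 0.05 TREAT passed 1 in set 1, 1 in set 2 and none of the rest, and with edgeR's quasi-likelihood fit it called 1 in set 1 (TET3) and 1 in set 2 (DNMT3B), where that fit called 1.86% and 5.9% of all genes. The share of members called in each set is set beside the share of all genes, and no test of the list was made. The median change of the 8 was 0.04 in set 1 and 0.44 in set 2, beside -0.01 for all genes in both.

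**Figure D2:**
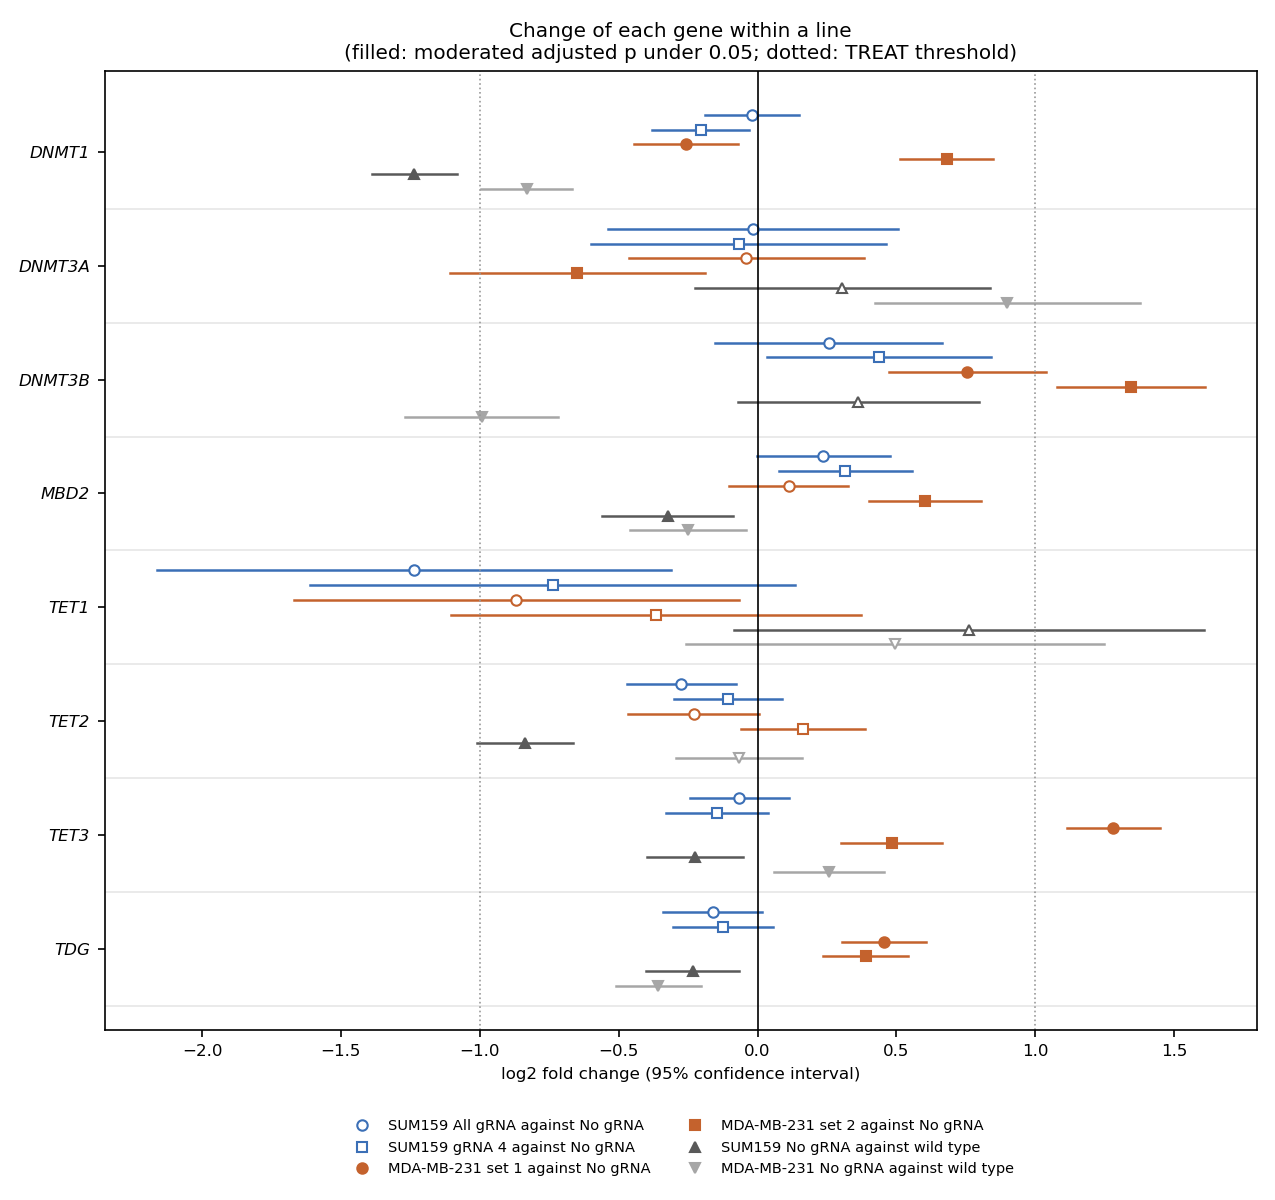
Log2 fold changes (x axis) of the 8 genes (y axis) with 95% confidence intervals for the targeted groups against No gRNA (blue SUM159, orange MDA-MB-231) and for No gRNA against wild type (grey). Filled symbols were called by the moderated test, and the dotted lines mark the TREAT threshold of 1 on either side. No SUM159 targeted group has a filled symbol, and set 1 and set 2 lie on opposite sides of 0 for DNMT1.

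DNMT1, the maintenance methyltransferase, lies on chromosome 19 (10133342 to 10231286, minus strand, GRCh38). The MDA-MB-231 wild type libraries held 359, 366 and 337 CPM and the No gRNA libraries 213, 231 and 179. Set 1 was at 168.5, 170.5 and 178 CPM and set 2 at 330.5, 334 and 312. Set 1 lay just below No gRNA, and set 2 lay above it in all libraries and just below wild type. The change from No gRNA was 0.68 in set 2 (95% confidence interval 0.51 to 0.85, moderated adjusted p = 1.76e-05) and -0.26 in set 1 (-0.45 to -0.07, adjusted p = 0.0344). The set 1 call was lost without either of No gRNA replicates 1 and 2 (-0.24 and -0.18) and without any 1 of the 3 set 1 libraries (-0.25, -0.25 and -0.28), with no filter on low counts (adjusted p = 0.0512) and with only the groups compared in the fit (adjusted p = 0.0661). The sets differed from each other by 0.94 (0.76 to 1.12, adjusted p = 2.08e-06).

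In SUM159, DNMT1 was at 299, 267 and 284.5 CPM in wild type cells of run 1 and at 123, 117 and 122 CPM in No gRNA. It was at 112, 105 and 99.7 CPM in gRNA 4 and 107, 122 and 129 CPM in All gRNA. The 3 groups with dCas9-KRAB lay close together and all of them far below wild type. The change from No gRNA was -0.20 in gRNA 4 (-0.38 to -0.03, adjusted p = 0.131) and -0.02 in All gRNA (-0.19 to 0.15, adjusted p = 0.906). SUM159 wild type cells of run 2 held 153, 155.5 and 123 CPM, all below run 1 and the lowest of them within the range of All gRNA.

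DNMT1 also differed between No gRNA and wild type. It was lower in No gRNA by -1.24 in SUM159 (-1.39 to -1.08, adjusted p = 1.5e-07, TREAT adjusted p = 0.144 by limma and 0.0341 by edgeR) and by -0.83 in MDA-MB-231 (SE 0.075, adjusted p = 2.63e-06). SUM159 wild type cells of run 2 were below those of run 1 by -0.98 (-1.19 to -0.77, adjusted p = 8.34e-05), a difference of untransduced cells of the same line that lies between those 2 changes in size.

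DNMT1 works at replication forks, and a list of S phase genes was set beside it: the clamp PCNA, the MCM2 to MCM7 helicase, MKI67, TOP2A, RRM2 and TYMS. In MDA-MB-231 set 2 all 11 were called higher than in No gRNA with a median change of 1.42 (median of all genes -0.01), and in set 1 10 of 11 were called lower with a median of -0.49 (all genes -0.01). In No gRNA all 11 were lower than in MDA-MB-231 wild type (median -1.55), and 10 of 11 were lower than in SUM159 wild type with 1, TOP2A, higher (median -0.98). In SUM159 wild type of run 2 10 of 11 were lower than in run 1 (median -1.01). In the SUM159 targeted groups 2 were higher and 1 lower in All gRNA (median -0.07), and 1 was higher and 1 lower in gRNA 4 (median -0.13). The summed level of the list was 1047 to 1166 CPM in set 1, 1548 to 1580 in MDA-MB-231 No gRNA, 2982 to 3047 in set 2 and 3530 to 3693 in wild type. In SUM159 it was 2618 to 2674 CPM in wild type of run 1, 1257 to 1281 in run 2 and between 1871 and 2080 in the groups with dCas9-KRAB. No gene of the list was at 0 in any group. Of all genes, 27.3% were called higher in set 2 and 17.3% lower in set 1. Against wild type 27.6% were lower in MDA-MB-231 No gRNA and 21.9% in SUM159 No gRNA, and 30.9% were lower in run 2 than in run 1. In All gRNA 5.93% were higher and 4.89% lower, and in gRNA 4 6.11% and 4.91%. The part of this list in the changes of DNMT1 was not tested.

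The partners of DNMT1 were measured as well. UHRF1, which recognises the methylation of the old strand after replication, had means of 139 CPM in MDA-MB-231 wild type and 45.9 CPM in No gRNA, with 43.2 CPM for set 1 and 140.2 CPM for set 2. It passed TREAT in set 2 with a change of 1.64 (SE 0.0488, TREAT adjusted p = 3.86e-06) and was not called in set 1 (-0.08, moderated adjusted p = 0.308). CDCA7, which recruits the remodeller HELLS, changed by 1.09 in set 2 and -1.09 in set 1 (moderated adjusted p = 8.21e-07 and 2.06e-05), and HELLS by 1.12 and -0.47 (adjusted p = 1.74e-05 and 0.031). Of the 5 partners with enough counts, 4 were called higher in set 2 (median 1.09), 1 higher and 2 lower in set 1 (median -0.16) and none in SUM159 All gRNA or gRNA 4 by limma's moderated test (0 and 2 at an unadjusted p under 0.05, medians 0.04 and 0.01). The sixth, DNMT3L, was at a mean of 0.026 CPM or below in every group. Of all genes, 27.3% were called higher in set 2, and 20.4% higher and 17.3% lower in set 1.

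**Figure D3:**
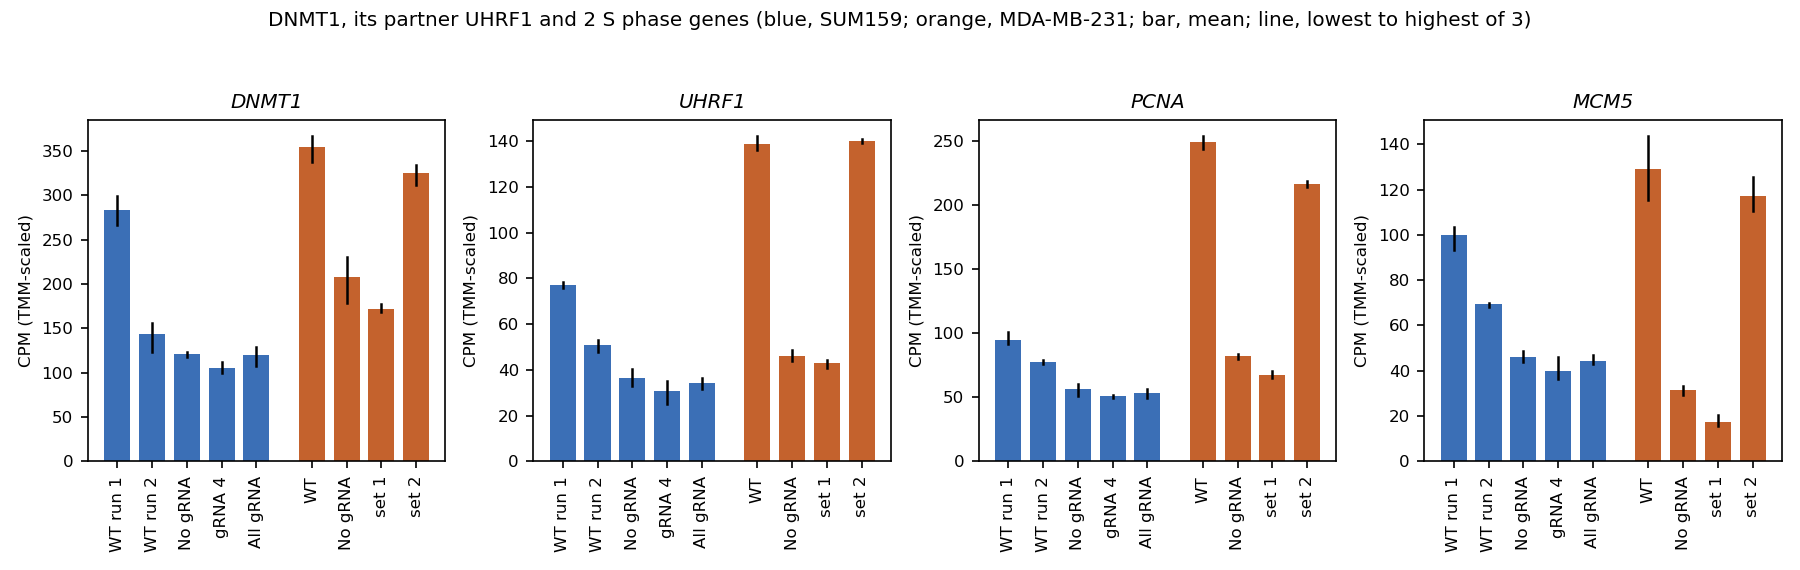
Mean CPM (bars) and the lowest to highest of 3 libraries (lines) of DNMT1, its partner UHRF1 and the S phase genes PCNA and MCM5 in the 9 groups on the x axis. In MDA-MB-231 all 4 genes are high in wild type and set 2 and lower in No gRNA and set 1, and in SUM159 all 4 are highest in wild type of run 1.

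DNMT3B, a de novo methyltransferase on chromosome 20 (32762385 to 32809359, plus strand), was the writer with the largest rise in the targeted MDA-MB-231 cells. No gRNA libraries held 11.7, 10.2 and 8.28 CPM, those of set 1 17.5, 16.3 and 16.5, and those of set 2 23.6, 25.7 and 25.3. The 3 groups did not overlap. The rise over No gRNA was 0.76 in set 1 (0.47 to 1.04, adjusted p = 7.65e-04) and 1.34 in set 2 (1.08 to 1.61, adjusted p = 3e-06, TREAT adjusted p = 0.144 by limma and 0.0492 by edgeR), and set 2 was above set 1 by 0.59 (0.35 to 0.83, adjusted p = 8.82e-04). Wild type libraries held 17, 19.4 and 20.9 CPM. No gRNA was below wild type by -0.99 (-1.27 to -0.72, adjusted p = 4.06e-05), and against wild type set 1 was not called (-0.24, adjusted p = 0.0938) while set 2 was (0.35, adjusted p = 0.0236). In SUM159 DNMT3B was at 1.69 to 4.35 CPM over all 15 libraries. Against No gRNA it was not called in All gRNA (0.26, -0.15 to 0.66, adjusted p = 0.439) or gRNA 4 (0.44, 0.03 to 0.84, adjusted p = 0.166), although all libraries of both groups lay above those of No gRNA. Against wild type of run 1 the moderated test called it higher in All gRNA (0.62, adjusted p = 0.0185) and gRNA 4 (0.80, adjusted p = 0.0045). With that control 48.7% and 46.8% of all genes were called in either direction. No gRNA itself was not called against wild type (0.36, adjusted p = 0.162).

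DNMT3A, the other de novo enzyme, on chromosome 2 (25227855 to 25342590, minus strand), was lower in set 2. MDA-MB-231 wild type libraries held 10.5, 11.8 and 7.51 CPM and No gRNA libraries 15.8, 17.4 and 24.2. Those of set 1 held 19.9, 18 and 16.9 CPM and those of set 2 11.3, 9.63 and 15.3. Set 1 overlapped No gRNA, and set 2 lay below it. The change was -0.65 in set 2 (-1.11 to -0.19, adjusted p = 0.0218) and -0.04 in set 1 (-0.46 to 0.38, adjusted p = 0.89). The set 2 call was lost without No gRNA replicate 3 (-0.47), set 2 replicate 1 (-0.61) or set 2 replicate 2 (-0.49). DNMT3A was higher in No gRNA than in wild type by 0.90 (0.42 to 1.38, adjusted p = 0.00445). It was also lower in set 2 than in set 1 by -0.61 (-1.08 to -0.14, adjusted p = 0.0324), a call lost without set 1 replicate 1 (-0.52) or 2 (-0.60) and without set 2 replicate 1 (-0.58) or 2 (-0.46), and with no filter on low counts (adjusted p = 0.071). In SUM159 it ranged from 6.33 to 11.3 CPM over 15 libraries and was not called in any comparison.

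The share of DNMT3B in the summed DNMT3 level per kb was 42.6% to 61.6% over the No gRNA libraries of MDA-MB-231, 65.7% to 68% in set 1 and 78.2% to 85.3% in set 2. Wild type libraries held 77.9% to 85.8%, a range that overlaps set 2. In SUM159 the share was between 32.5% and 54% in all libraries.

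TET3, on chromosome 2 (73984910 to 74108176, plus strand), is the TET enzyme with the most mRNA in both lines, and it rose in both targeted MDA-MB-231 sets. Wild type libraries held 29.7, 27 and 31.4 CPM and No gRNA libraries 38.5, 35.6 and 35.2. Set 1 was at 81.8, 87.1 and 96.5 CPM and set 2 at 50.1, 51.5 and 48.5. The 4 groups did not overlap. Over No gRNA the rise was 1.28 in set 1 (1.11 to 1.45, adjusted p = 2.4e-07, TREAT adjusted p = 0.105 by limma and 0.0241 by edgeR) and 0.48 in set 2 (0.30 to 0.66, adjusted p = 4.61e-04), and set 2 was below set 1 by -0.80 (-0.96 to -0.64, adjusted p = 3.13e-06). No gRNA was itself above wild type by 0.26 (0.06 to 0.45, adjusted p = 0.0323). That call was lost without wild type replicate 1 (0.26) or 2 (0.20) or No gRNA replicate 1 (0.22) and with no filter on low counts (adjusted p = 0.0513).

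In SUM159 TET3 was at 62.8, 67.4 and 62 CPM in wild type of run 1, 55.4, 56.7 and 53.2 in No gRNA, 51.5, 49.4 and 49.2 in gRNA 4, and 60, 50.6 and 48.2 in All gRNA. Its change from No gRNA was -0.15 in gRNA 4 (-0.33 to 0.04, adjusted p = 0.31) and -0.07 in All gRNA (-0.25 to 0.11, adjusted p = 0.677). The upper bounds lie under the rise seen in either MDA-MB-231 set.

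TET2 and TET1 were not called against No gRNA in either line. TET2, on chromosome 4 (105145875 to 105279816, plus strand), changed by -0.27 in SUM159 All gRNA (-0.47 to -0.08, adjusted p = 0.0744), from 23.9, 23.9 and 25.8 CPM to 21.6, 19.8 and 19.5, groups that do not overlap. DESeq2 and scaling by library totals called it (adjusted p = 0.0373 and 0.043). In MDA-MB-231 it was at 12.1 to 13.8 CPM in set 1, 13.8 to 16.6 in No gRNA and 15.4 to 18.7 in set 2, and set 2 was above set 1 by 0.39 (0.16 to 0.63, adjusted p = 0.0091). Scaling by library totals called TET2 in set 1 (-0.31, adjusted p = 0.0401). TET1, on chromosome 10 (68560337 to 68694487, plus strand), was the scarcest, at 0.213 to 1.44 CPM and 3.92 to 25.4 estimated counts in every library. Its changes were -1.24 in SUM159 All gRNA (-2.16 to -0.31, adjusted p = 0.0884), -0.74 in gRNA 4, -0.87 in set 1 (-1.67 to -0.07, adjusted p = 0.083) and -0.36 in set 2. None was called, the changes within a line share their No gRNA libraries, and with wild type as the control TET1 was at 0.024 in gRNA 4 and 0.13 in set 2. In SUM159 TET1 passed the filter only through libraries of No gRNA and gRNA 4, at up to 14.7 and 11.7 counts. All gRNA held 3.92 to 7.9 counts, below the minimum of 10. The TET1 change in All gRNA is therefore a description and no support for a difference.

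By share of the TET level per kb, TET3 held 61.9% to 66.7% over the MDA-MB-231 No gRNA libraries, 83.4% to 84% over those of set 1 and 67.2% to 71.8% over those of set 2. The ratio of summed DNMT to summed TET level per kb was 15.9 to 19.5 in MDA-MB-231 wild type and 8.27 to 10.1 in No gRNA, against 4.13 to 4.72 for set 1 and 11.2 to 11.8 for set 2. SUM159 gave 5.04 to 5.89 in wild type of run 1, 2.49 to 2.74 in run 2 and between 3.08 and 4.36 in the groups with dCas9-KRAB. These are ratios of mRNA and not of enzyme activity, and they rest on canonical transcript lengths.

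**Figure D4:**
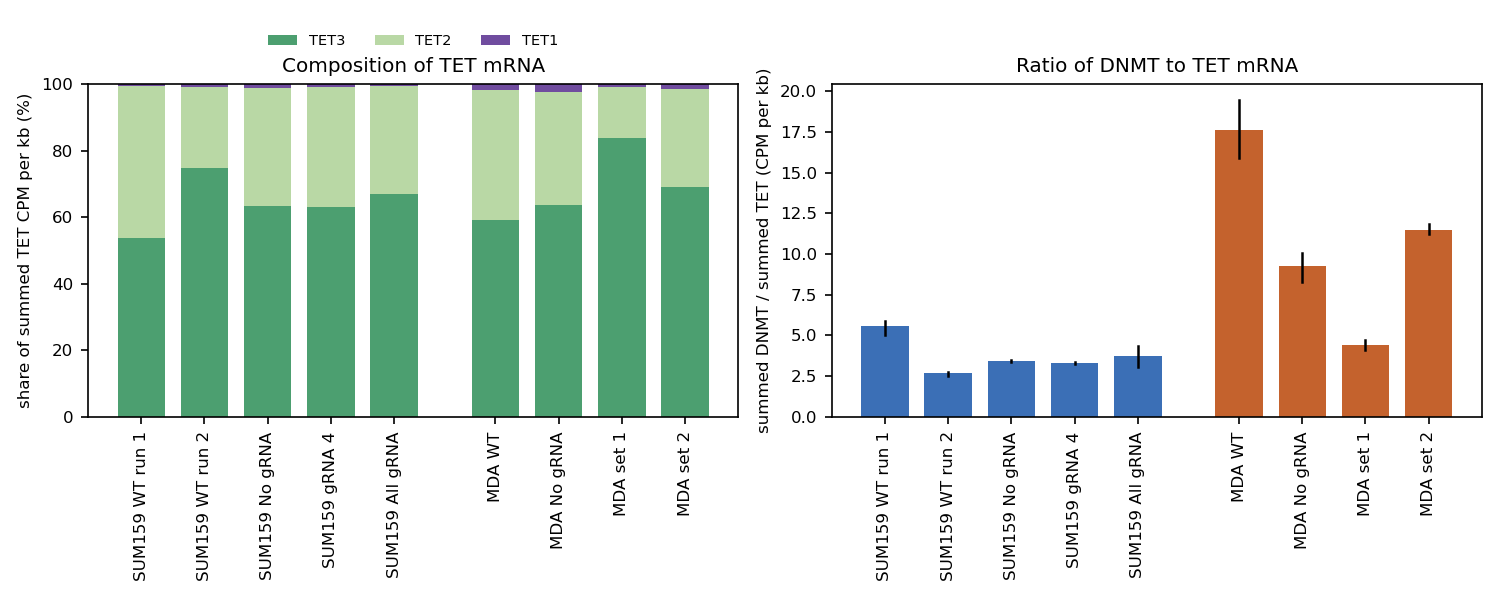
Left, share of TET3, TET2 and TET1 in the summed TET level (mean CPM per kb of canonical transcript) in each group; right, ratio of the summed DNMT to the summed TET level on the same scale, with lines from the lowest to the highest of 3 libraries. TET3 makes up 83.8% in MDA-MB-231 set 1 and between 53.6% and 74.9% in the other groups, and the ratio is highest in MDA-MB-231 wild type cells at 17.6.

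TDG, the glycosylase on chromosome 12 (103965822 to 103988874, plus strand), rose in both MDA-MB-231 sets by similar amounts. No gRNA libraries held 59.7, 63.1 and 59.1 CPM, set 1 89.4, 78.1 and 81.5, and set 2 77.5, 82.1 and 74.7. Both sets lay above No gRNA and overlapped each other and the wild type libraries (72.2 to 79.8 CPM). The rise was 0.46 in set 1 (0.30 to 0.61, adjusted p = 3.48e-04) and 0.39 in set 2 (0.24 to 0.54, adjusted p = 6.17e-04). Against wild type neither set was called (0.10 and 0.03). In SUM159 the changes were -0.16 in All gRNA (-0.34 to 0.02, adjusted p = 0.244) and -0.12 in gRNA 4 (-0.30 to 0.05, adjusted p = 0.382).

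MBD2, the methyl-CpG reader on chromosome 18 (54151606 to 54224669, minus strand), was called in set 2 and not in set 1. MDA-MB-231 No gRNA libraries held 60.8, 77 and 73.3 CPM, set 1 70.8, 76.3 and 79.7, and set 2 117, 98.2 and 99.5. Set 2 lay above the other groups, including wild type at 78.3 to 82.1 CPM. The rise was 0.60 in set 2 (0.40 to 0.80, adjusted p = 1.99e-04) and 0.11 in set 1 (-0.10 to 0.33, adjusted p = 0.403), and set 2 was above set 1 by 0.49 (0.29 to 0.69, adjusted p = 9.24e-04). In SUM159 its changes were 0.32 in gRNA 4 (0.08 to 0.55, adjusted p = 0.0915) and 0.24 in All gRNA (-0.0035 to 0.48, adjusted p = 0.207), and DESeq2 called the first (adjusted p = 0.0388).

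The lines differed in the effect of the gRNAs for 4 of the 8 genes, tested as the mean change of both MDA-MB-231 sets minus the mean change of both SUM159 targeted groups over 24 libraries. The difference was 0.96 for TET3 (0.76 to 1.17, adjusted p = 3.48e-07), 0.68 for DNMT3B (0.25 to 1.11, adjusted p = 0.0187), 0.54 for TDG (0.35 to 0.73, adjusted p = 1.35e-04) and 0.30 for DNMT1 (0.09 to 0.51, adjusted p = 0.0354). All 4 were higher in MDA-MB-231, and no member was called lower, where 12.4% of all genes were called higher and 13% lower. TREAT called none of the 8, none at an unadjusted p under 0.05, and 0.954% of all genes. For DNMT1 the difference is a mean of sets that moved in opposite directions. The DNMT1 call was lost with no filter on low counts (0.32, adjusted p = 0.0698). Line and run coincide in this test and cannot be told apart. With wild type as the control DNMT3B changed by -0.24 in set 1 and 0.35 in set 2. In SUM159 it then changed by 0.62 in All gRNA and 0.80 in gRNA 4, above both sets. For TET3, TDG and DNMT1 both sets stayed above both SUM159 groups with that control. The difference between lines was tested against No gRNA only.

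Cells with the vector and no gRNA differed from wild type in most of the 8. In SUM159 No gRNA 5 were called lower than in wild type and none higher, where 21.9% of all genes were lower and 21% higher. They were DNMT1, TET2 (-0.84, -1.01 to -0.67, adjusted p = 7.6e-06), MBD2 (-0.32, adjusted p = 0.0291), TDG (-0.23, adjusted p = 0.0284) and TET3 (-0.23, adjusted p = 0.0363). TET2 fell from 44.3, 44.5 and 42.2 CPM to 23.9, 23.9 and 25.8. The calls of DNMT1 and TET2 held with each library left out, and without wild type replicate 1 they were the only 2. The TET3 and MBD2 calls were also lost without wild type replicate 2 (-0.19 and -0.26) and without any 1 of the No gRNA libraries, except that MBD2 held without replicate 1, and TDG was lost without No gRNA replicate 2 (-0.21) or 3 (-0.22). With no filter on low counts all 3 were lost (adjusted p = 0.0807, 0.0528 and 0.0656 for TET3, MBD2 and TDG), and with only the groups compared TDG was lost (-0.23, adjusted p = 0.0649).

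In MDA-MB-231 No gRNA 4 of the 8 were lower than in wild type (DNMT1, DNMT3B, TDG and MBD2) and 2 higher (DNMT3A and TET3), where 27.6% of all genes were lower and 26.2% higher. TDG changed by -0.36 (-0.51 to -0.20, adjusted p = 0.00109) and MBD2 by -0.25 (-0.46 to -0.04, adjusted p = 0.0446). The MBD2 call was lost without any 1 wild type library (-0.24, -0.27 and -0.26) and without No gRNA replicate 1 (-0.15) or 3 (-0.28), by edgeR (adjusted p = 0.0602) and DESeq2 (adjusted p = 0.0572), and with DESeq2 size factors (0.0666), library totals (0.0737), no filter (0.103), a minimum count of 50 (0.0637) or only the groups compared (0.0623). The mitochondrial share did not overlap between these groups, at 1.99% to 2.03% in wild type and 1.46% to 1.86% in No gRNA, and its part was not tested. TREAT called none of the 8 in either line, with 1.53% of all genes in SUM159 and 3.6% in MDA-MB-231, and at an unadjusted p under 0.05 it passed DNMT1 in SUM159 only. These comparisons share their No gRNA libraries with those of the targeted groups.

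Between the lines, wild type cells of run 2 differed in 6 of the 8 genes, 3 higher and 3 lower in SUM159, where 33.8% of all genes were higher and 39.2% lower. DNMT3B was at 2.3, 1.97 and 2.94 CPM in SUM159 and lower by -3.03 (-3.45 to -2.61, TREAT adjusted p = 6.5e-07). DNMT1 was lower by -1.34 (-1.54 to -1.14, TREAT adjusted p = 0.00561). TET3 was at 101, 103 and 90.1 CPM in SUM159 and higher by 1.70 (1.52 to 1.88, TREAT adjusted p = 6.68e-06). These 3 passed TREAT, where 28.8% of all genes did. TDG was lower by -0.50, TET2 higher by 0.67 and MBD2 higher by 0.37 by the moderated test. DNMT3A and TET1 were not called, and TET1 turned from 0.27 to -0.83 with run 1 as the source of SUM159 wild type cells.

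How far the same untransduced line can differ is seen in SUM159 wild type of run 2 against run 1. Of the 8, 3 were lower (DNMT1, TET2 by -0.79 and MBD2 by -0.41) and 2 higher (TET1 by 1.10 and TET3 by 0.61), where 30.9% of all genes were lower and 31.3% higher, and TREAT called none of the 8, none at an unadjusted p under 0.05, and 6.65% of all genes. TET2 was at 26.5, 24.5 and 24.5 CPM in run 2, a range that overlaps the No gRNA libraries of run 1. TET1 held 6.84 to 9.79 counts in run 1 and 11.8 to 15.9 in run 2. At a minimum count of 10 it entered this fit only through run 2, where it is higher. Its call is therefore a description and no support for a difference. The TET1 call was lost without run 1 replicate 1 (0.96) and by DESeq2, and DNMT3A was called without run 2 replicate 2 (0.56, adjusted p = 0.0107). The mitochondrial share was 2.62% to 3.01% in run 1 and 1.53% to 1.55% in run 2, and its part was not tested. Whether the libraries of the 2 runs came from the same cultures is not given in the sources used here.

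The other genes of the pathway were described by lists, and no list was tested. The counts below stand beside these shares of all genes called by the moderated test. In set 1 20.4% were higher and 17.3% lower, and in set 2 27.3% and 25.1%. In SUM159 All gRNA it was 5.93% and 4.89%, and in gRNA 4 6.11% and 4.91%. Among TET partners, CXXC5, a CXXC domain protein that binds unmethylated CpG, was lower in SUM159 All gRNA (-0.88, SE 0.248, adjusted p = 0.0415) and in set 1 (-0.69, SE 0.214, adjusted p = 0.0248). DCAF1, part of the ligase that modifies TET proteins, was lower in set 1 (-0.39) and higher in set 2 (0.43). OGT, the sugar transferase bound by TET proteins, was lower in set 2 (-0.40, adjusted p = 0.0172). Of the 4 genes of this list, the moderated test of limma called 1 lower in All gRNA (median -0.31), none in gRNA 4 (2 at an unadjusted p under 0.05, median -0.40), 2 lower in set 1 (median -0.54), and 1 higher and 1 lower in set 2 (median -0.38).

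Among the 7 other methyl-CpG readers, ZBTB38 was lower in SUM159 All gRNA (-0.56), gRNA 4 (-1.08) and set 2 (-0.83), with moderated adjusted p-values of 0.0119, 2.27e-04 and 8.53e-05, and was not called in set 1 (-0.21, adjusted p = 0.146). In MDA-MB-231 its mean was 94.0 CPM in wild type, 157.3 in No gRNA and 87.2 in set 2, so No gRNA lay above wild type and set 2 near it. MBD3, the NuRD subunit that lost affinity for methylated DNA, was lower in set 1 (-0.26) and higher in set 2 (0.61). In set 1, 1 of the 7 was higher and 1 lower (median -0.11), and in set 2, 2 and 2 (median 0.06). The NuRD subunits that MBD2 brings were 2 higher and 4 lower of 10 in set 1 (median -0.04) and 6 higher and 1 lower in set 2 (median 0.30). Of these, the deacetylase HDAC1 changed by -0.40 and 0.30 and the bridging subunit GATAD2A by 0.54 and 0.60.

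Downstream of TDG, 3 of 11 base excision repair genes were higher and 3 lower in set 1 (median 0.25), and 3 and 3 in set 2 (median 0.03). The glycosylase NEIL3 changed by -0.88 in set 1 and 0.38 in set 2, and the endonuclease APEX1 by -0.54 and 0.52. GADD45A, a stress-induced gene linked to demethylation, rose by 0.60 in set 1 (moderated adjusted p = 2.39e-06) and fell by 1.55 in set 2 (adjusted p = 6.08e-09, TREAT adjusted p = 1.54e-04). None of the 11 was called in SUM159 All gRNA or gRNA 4 by limma's moderated test (2 in each at an unadjusted p under 0.05, medians -0.03 and 0.05).

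For the supply of the methyl donor, 1 of 6 genes of the S-adenosylmethionine cycle was higher and 2 lower in set 1 (median -0.17) and 2 higher and 1 lower in set 2 (median -0.06). AHCY, which removes the product that inhibits methyltransferases, changed by -0.14 and 0.61. TET enzymes need 2-oxoglutarate, and of 8 genes of its metabolism 1 was higher and 4 lower in set 1 (median -0.21) and 4 higher and none lower in set 2 (median 0.27). IDH1, the cytosolic isocitrate dehydrogenase, fell in SUM159 All gRNA (-0.36, adjusted p = 0.00407), gRNA 4 (-0.35, adjusted p = 0.00461) and set 1 (-1.01, adjusted p = 1.13e-05). It was 1 of 2 genes of this list called lower in each SUM159 group, with none higher (medians -0.05 and -0.01).

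Germline genes that promoter methylation keeps silent in somatic cells, DAZL, MAEL, SYCP3, DDX4, MAGEA1, MAGEA4 and MAGEB2, were near 0. Their summed level was between 0 and 2.19 CPM in all 27 libraries, and MAEL alone passed the filter, in MDA-MB-231, where it was not called in set 1 (0.02) or set 2 (-1.31, adjusted p = 0.0619).

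As a description of which genes follow each member most closely, 13774 genes tested in both lines were ranked by the Pearson correlation of log2 CPM over 24 libraries, each line centred on its own mean. The libraries share groups, runs and depth, so the coefficients are high in general. For DNMT1 the closest were HSP90AA1 (0.971), SFPQ (0.966) and XRCC5 (0.964), for DNMT3B ABRACL (0.938), WRAP73 (0.886) and NENF (0.885), and for DNMT3A TPP1 (0.807), LINC00863 (0.803) and GDPD1 (0.798). TET3 was closest to FBXO45 (0.95), HNRNPH3 (0.948) and SNAI2 (0.94), TET2 to DBNL (0.948), SRSF6 (0.932) and DIAPH3 (0.93), and TET1 to RUFY1 (0.704), PLSCR4 (0.664) and RTP4 (0.657). TDG was closest to NOL6 (0.881), TRAF4 (0.879) and TP53RK (0.867), and MBD2 to HDGFP1 (0.821), VCP (0.816) and SDHA (0.804).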

How the data were processed

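RNA of 27 libraries was sequenced as 50 bp single-end reads. The authors quantified reads with Salmon against GRCh38 and summed transcripts with tximport. The deposited values are estimated counts of a gene, scaled for the length of its transcripts and not normalised between libraries. Salmon's version, the annotation and strandedness are not given in the sources used here. Of 57165 gene identifiers, 56347 matched GENCODE release 44, from which positions and canonical transcript lengths came.

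Groups came from the sample labels. Comparisons used R 4.3.3 with limma 3.58.1 (voom, TMM scaling, filterByExpr with a minimum count of 10, TREAT at a log2 fold change of 1 and the moderated test against 0, adjusted p under 0.05). The fits held the 12 libraries of a line, the 15 of run 2 for the lines, the 6 SUM159 wild type libraries for the runs, and 24 for the difference between lines. CPM use TMM-scaled totals. Alternatives were edgeR 4.0.16 and DESeq2 1.42.0 on rounded counts, other scalings and filters, only the groups compared, wild type as control, the replicate number as a block and each library left out. The steps were tested on simulated data, with a fixed spread for all genes that was not taken from these libraries. That test does not give error rates for these data. Intervals and p-values measure the spread between these libraries only.

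All 8 members were named, and other genes by fixed lists with up to 4 examples each. Members and lists were chosen with earlier results of these data known. By gene position, TET2 overlaps the antisense TET2-AS1, and DNMT1 overlaps MIR4322 on the opposite strand. Without strand information their reads may not be separable where transcripts share sequence, which was not looked at. DNMT1 overlaps S1PR2 on its own strand, and DNMT3A, TET1 and TDG have pseudogenes (DNMT3AP1, TET1P1, TDGP1) in the table. gRNA sequences are not printed.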

Additional observations from a re-analysis of the deposited data

Results flagged for a closer look

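The mean effect of the ZEB1-targeted groups against No gRNA differed between the lines, as tested by an interaction term over 24 libraries, for DNMT1 (0.30), DNMT3B (0.68), TET3 (0.96) and TDG (0.54) on the log2 scale, each higher in MDA-MB-231 than in SUM159. Line and sequencing run cannot be told apart in it. With wild type as the control DNMT3B changed more in SUM159 (0.62 in All gRNA and 0.80 in gRNA 4) than in MDA-MB-231 (-0.24 in set 1 and 0.35 in set 2). TET3, TDG and DNMT1 kept their side, and the interaction was not tested with that control. Against No gRNA the S phase genes had a median change of -0.49 in set 1 and 1.42 in set 2, and DNMT1 changed by -0.26 and 0.68. DNMT3B, TET3 and TDG were higher in both sets. The part of the S phase genes was not tested. With 3 libraries a group, single libraries far from the rest were not looked for.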

How the results depend on the processing

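With wild type as the control in place of No gRNA, 5 members were called in SUM159 All gRNA, 5 in gRNA 4 (1 by TREAT), 3 in set 2 and, by TREAT, 1 in set 1, and signs turned for DNMT3A (0.29 in All gRNA, 0.24 in gRNA 4, 0.86 in set 1, 0.25 in set 2), MBD2 (-0.089, -0.0085 and -0.14 in All gRNA, gRNA 4 and set 1), TET1 (0.024 in gRNA 4, 0.13 in set 2), DNMT3B (-0.24 in set 1) and DNMT1 (-0.15 in set 2). All-gene calls then went from 1639 to 7384 in All gRNA (48.7% of genes), 1668 to 7096 in gRNA 4 (46.8%), 5935 to 9348 in set 1 (59.5%) and 8235 to 5709 in set 2 (36.3%), and from 60 to 349, 59 to 373 and 231 to 1323 by TREAT, and TREAT calls in set 2 fell from 651 to 227. All gRNA against gRNA 4 had 143 calls, 28 with only the groups compared and 357 by DESeq2, and edgeR gave 363 TREAT calls for SUM159 No gRNA against 231, and 738 between the sets against 483. Without No gRNA replicate 2, All gRNA had 1048 calls, and without No gRNA replicate 1 31 by TREAT, and without wild type replicate 1 SUM159 No gRNA against wild type had 147 by TREAT. DESeq2 gave 3 TREAT calls between All gRNA and gRNA 4, where limma gave 0. DESeq2 called 1 member in each SUM159 targeted group and library totals 1 in All gRNA, edgeR's quasi-likelihood TREAT 1 in set 1, 1 in set 2 and 1 in SUM159 No gRNA against wild type, where no filter left 2 called. TET1 between the lines was -0.83 with SUM159 wild type of run 1.

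Leaving out 1 library gave these ranges across 0, all for values that were not called: in All gRNA DNMT1 -0.077 to 0.054, DNMT3A -0.24 to 0.25 and TET3 -0.16 to 0.0025; in gRNA 4 DNMT3A -0.29 to 0.077; between them DNMT3A -0.094 to 0.31, TET3 -0.013 to 0.15 and MBD2 -0.14 to 0.010; in set 1 DNMT3A -0.16 to 0.14; between the sets TDG -0.10 to 0.017; TET2 in MDA-MB-231 No gRNA against wild type -0.12 to 0.0088; DNMT3A between lines -0.25 to 0.13; and between runs DNMT3B -0.12 to 0.23 and TDG -0.043 to 0.098. Members called in SUM159 No gRNA against wild type ranged from 2 to 5.

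The replicate numbers did not pair the libraries (correlations of same-numbered deviations -0.0831 to 0.0527 over 27 pairs). With the replicate number as a block, 69 results kept their side and 3 lost the call: DNMT3A between the sets (-0.60), and MBD2 in No gRNA against wild type in SUM159 (-0.32) and MDA-MB-231 (-0.25). Of 27 pairs 13 correlated best with their own number. TET1, at under 26 counts in every library, is where depth limits most.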
